A study of Mus musculus with 21 samples.

Results

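The genes described here are 8 regulators of the G1 phase of the cell cycle in mouse embryonic stem cells: the D cyclins Ccnd1, Ccnd2 and Ccnd3, the E cyclins Ccne1 and Ccne2, the kinase Cdk6, and the CDK inhibitor genes Cdkn1b and Cdkn2a. They were chosen by symbol, all 8 are among the 16443 genes of the deposited values, and none was listed at 0 in any library. All libraries come from 2TS22C, an embryonic stem cell line in which, as background, doxycycline shuts off Sox2. The NTC groups are untransduced 2TS22C cells, labelled WT, with no doxycycline named. Per the labels, the other groups received doxycycline, had their endogenous SOX2 silenced, and carried a lentivirus for SOX2 itself (SOX2 groups), for SOX17FNV, a variant of SOX17, a factor of endoderm (FNV groups), or for miniSOX, given by name only. A comparison with NTC therefore also compares doxycycline and transduction with their absence, and these cannot be told apart from the factor. The promoter of the lentiviruses, and whether a line is a clone or a pool, are not given in the sources used here. Each line was grown in serum and LIF (SL) or in serum and LIF with 2i, which as background blocks MEK and GSK3. The 21 libraries were 3 of NTC, 4 of SOX2, 4 of FNV and 2 of miniSOX cells in 2i, with a pair per line in SL. The age of the cultures is not given. Some samples are titled as biological replicates, but the numbered replicates are not said to be separate cultures. P-values therefore measure the spread between these libraries, which may be technical.

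D cyclins bind CDK4 or CDK6, and cyclin E binds CDK2. Both kinds of complex phosphorylate the retinoblastoma protein, which frees E2F factors to switch on genes of DNA replication. The KIP inhibitors, among them p27 from Cdkn1b, bind whole cyclin and kinase complexes, whereas the INK4 inhibitors, among them p16Ink4a from Cdkn2a, bind CDK4 and CDK6 alone. Embryonic stem cells are known for a short G1 phase, high cyclin E and CDK2 activity, and little D cyclin protein. Cyclin D1 is a textbook target of both the ERK and the Wnt pathways, which 2i acts on in opposite ways.

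The start of each D cyclin's coding sequence is shown because it carries what these proteins share, the LxCxE pattern with which they dock on the retinoblastoma protein. The first 60 coding bases, from GENCODE M21 on GRCm38, are given 5′ to 3′, with the 5 codons of the pattern in capitals. These are codons 5 to 9 in Ccnd1 and codons 3 to 7 in Ccnd2 and Ccnd3.
Ccnd1: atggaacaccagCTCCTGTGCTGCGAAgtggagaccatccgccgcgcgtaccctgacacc
Ccnd2: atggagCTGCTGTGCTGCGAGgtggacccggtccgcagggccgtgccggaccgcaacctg
Ccnd3: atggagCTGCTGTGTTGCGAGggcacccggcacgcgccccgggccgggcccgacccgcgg

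Cdkn2a gives rise to 2 proteins. Its transcripts start from different first exons, and the shared second exon is read in different frames, so that one encodes p16Ink4a and the other p19Arf, which acts on MDM2 and not on a kinase. The first 60 coding bases of each are shown because the proteins differ from this end on, and no base is in capitals.
Cdkn2a (p16Ink4a): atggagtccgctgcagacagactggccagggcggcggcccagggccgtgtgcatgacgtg
Cdkn2a (p19Arf): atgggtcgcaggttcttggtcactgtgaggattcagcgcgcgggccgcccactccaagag
The transcripts share a stretch of 578 bases, 67.8% of the first and 64.6% of the second. The deposited values hold 1 row for the gene, so the value of Cdkn2a is that of both transcripts together and does not say which protein is made.

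Titles and organism labels split the libraries into 2 sets, named waves below. Numbered replicates of NTC, SOX2 and FNV cells make up the first wave (12 libraries). The p21 and p31 libraries, all in 2i, and every miniSOX library make up the second wave (9 libraries). In SL only miniSOX cells were in the second wave, so there a wave and the miniSOX line cannot be told apart, and the wave term of the model rests on the 2i libraries. The p31 library of NTC in 2i differed from the mean of the other 2 NTC libraries by 2.06-fold to 3.39-fold in Ccne2, Ccne1, Cdk6 and Cdkn1b, and it had a Sox2 value of 2697 against 1310 and 1362. Sox2 was 19 to 60 in FNV and miniSOX cells, and Sox17 was 1792 to 30391 there and 0 to 6 elsewhere. The labels name a SOX17 variant for FNV cells, whereas miniSOX is given by name only. Summed over 10 pluripotency markers, the libraries lay between 48828 and 92834. NTC p31 was the lowest, against 80549 and 81519 in the other 2 NTC libraries in 2i, and its trophectoderm marker sum was 2788 against 1323 and 1341. Of 11 measured fibroblast markers the sum was 170 to 2246, and it was highest in miniSOX cells in SL. Of these, Col3a1 was listed at 0 in 5 libraries and Postn in 3. Sums over 10 trophectoderm markers ran from 850 to 17385, and over 6 measured endoderm markers from 2114 to 8140. Abundant genes weigh most in such sums. Among trophectoderm markers Krt8 reached 8269 and Krt18 5475, whereas Cdx2 was at 0 in 7 libraries and Elf5 in 4. The endoderm marker Afp was at 0 in 9. Markers of a list could also go both ways: in FNV cells 5 trophectoderm markers were higher and 2 lower in 2i. In such bulk samples, fewer cells of a type and less RNA per cell cannot be told apart.

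The deposited values are normalized between libraries and have no unit, and are called normalized values here. A log2 change is the difference of log2(value + 1) estimated by limma, given with its standard error (SE), and it understates the change of low genes. A change passed when its Benjamini-Hochberg adjusted p over all genes was under 0.05. Over the 16 comparisons between 2 groups, 57 of 128 tests of these genes passed (44.5%), where the share of all genes that passed ran from 7.66% to 44.9% by comparison. With 4 tests of a difference between media effects, where 13.7% to 25.8% of all genes passed by test, 71 of 160 tests of these genes passed. Of these 71, 28 also passed under every alternative that was run, including leaving out each library in turn. They were 10 for Ccnd1, 9 for Ccnd3, 4 for Cdk6, 3 for Ccne1 and 2 for Cdkn2a, and 0 for Ccnd2, Ccne2 and Cdkn1b. The share of all genes that held under every alternative is not given, so the 28 have no background beside them.

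**Figure D1:**
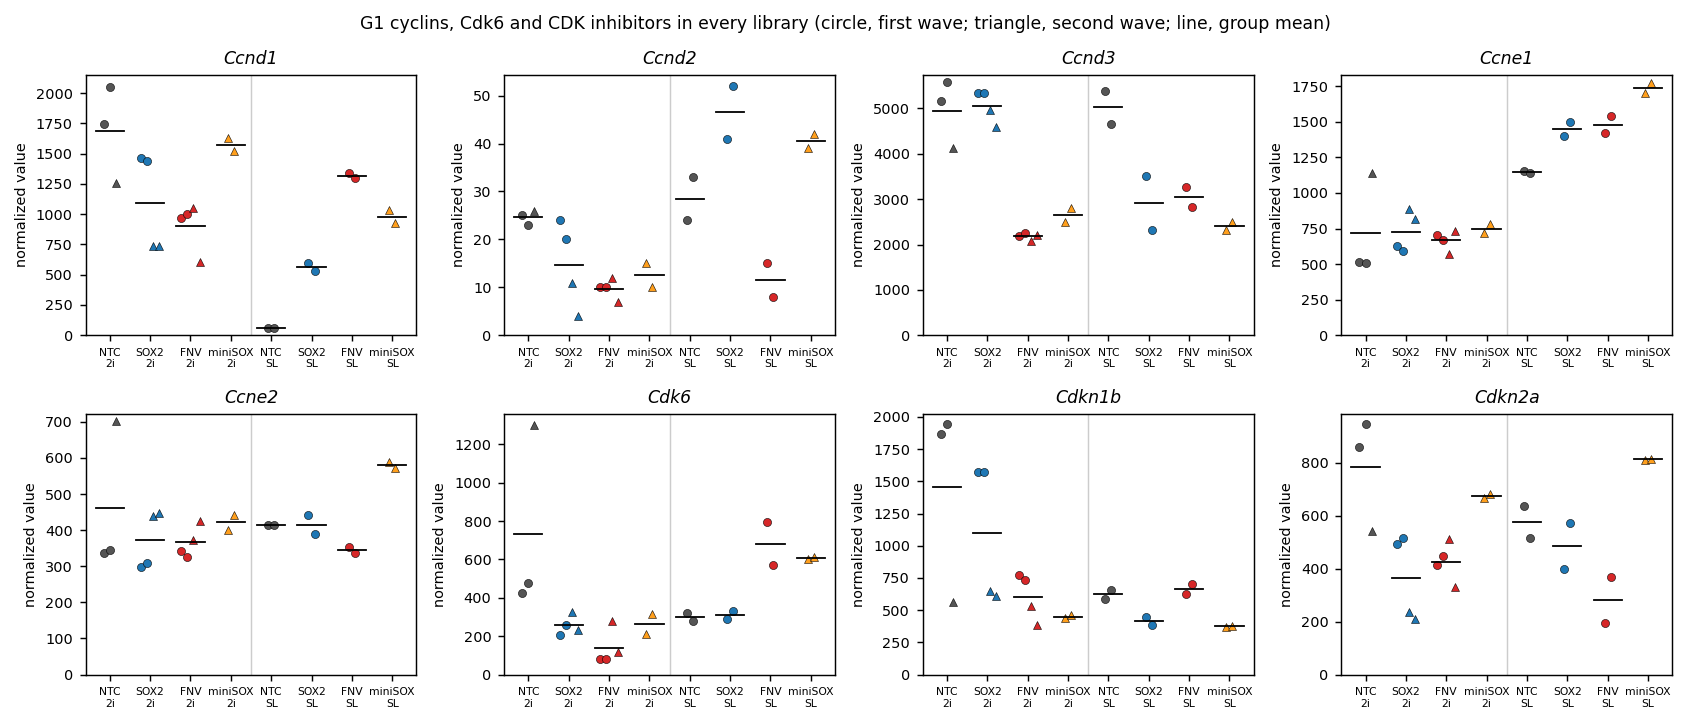
Normalized value (y axis, linear, from 0) of each gene in every library, by line and medium (x axis). Circles are first-wave libraries, triangles second-wave libraries, and lines group means. Ccnd1 is at 58 and 56 in NTC cells in SL and at 531 or more in every other library, and all 2i libraries are below all SL libraries for Ccne1.

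Ccnd1 (ENSMUSG00000070348, chromosome 7, 144929931 to 144939925, minus strand, 5 exons) was the member with the widest range in fold. It stood at 1742, 2054 and 1261 in NTC cells in 2i and at 58 and 56 in SL. Cyclin D1 RNA was thus 29.6-fold higher in 2i by the group means, with no overlap between libraries (log2 change 5.04 ± 0.20 (SE), adjusted p = 5.15e-10). In SOX2 cells the values were 1461, 1438, 740 and 741 in 2i and 596 and 531 in SL, a 1.94-fold difference that passed (log2 change 1.19 ± 0.19 (SE), adjusted p = 0.000175). MiniSOX cells had 1627 and 1521 in 2i and 1037 and 924 in SL. There the change was 0.68 ± 0.21 (SE; adjusted p = 0.0207), and the call was lost when any 1 of the 4 miniSOX libraries was left out (0.60 to 0.77, adjusted p 0.051 to 0.12).

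FNV cells showed no passed change of Ccnd1 with the medium over all libraries. Their values were 966, 1003, 1049 and 607 in 2i and 1341 and 1298 in SL, so that every 2i library was below both SL libraries (log2 change -0.26 ± 0.19 (SE), adjusted p = 0.31). In the first wave alone this difference passed (-0.42 ± 0.09 (SE), adjusted p = 0.0042). The medium effect differed between lines by the test of the difference itself: against NTC the difference was -3.85 ± 0.26 for SOX2, -5.30 ± 0.26 for FNV and -4.36 ± 0.29 for miniSOX cells on the log2 scale (SE; adjusted p = 5.34e-07, 1.75e-08 and 6.96e-07). It was also smaller in FNV than in SOX2 cells, with a difference of -1.45 ± 0.26 (SE; adjusted p = 0.00136).

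The differences from NTC in Ccnd1 were therefore larger in SL than in 2i. This did not hold for miniSOX against FNV cells, which passed only in 2i. In SL that change was 0.19 ± 0.25 (SE; adjusted p = 0.676), although the miniSOX values, 1037 and 924, were below the FNV values, 1341 and 1298. Its sign is set by the wave term. Against NTC in SL, Ccnd1 was higher in SOX2 cells (log2 change 3.28 ± 0.21 (SE), adjusted p = 2.74e-07), FNV cells (4.51 ± 0.21, adjusted p = 6.47e-09) and miniSOX cells (4.70 ± 0.25, adjusted p = 2.07e-08). These comparisons share the 2 NTC libraries, and the miniSOX estimate also rests on the wave term. As means of log2(value + 1) in SL, with no wave term, miniSOX cells were at 9.94, FNV cells at 10.37 and NTC cells at 5.86. SOX2 cells had the lowest values of the rescued lines in SL, and FNV cells exceeded them by 1.23 ± 0.21 (SE; adjusted p = 0.000951). MiniSOX cells exceeded them by 1.42 ± 0.25 (SE; adjusted p = 0.00107), a call lost with no wave term (0.80, adjusted p = 0.126). In 2i, Ccnd1 was lower than in NTC in FNV cells (-0.79 ± 0.16, SE; adjusted p = 0.00118). In SOX2 cells it was also lower (-0.57 ± 0.16, SE; adjusted p = 0.0163), but libraries overlapped and the call was lost without NTC replicate 2 (-0.52) or NTC p31 (-0.55). In miniSOX cells in 2i it did not pass against NTC (0.34 ± 0.21, SE; adjusted p = 0.252). It was higher there than in SOX2 cells (0.91 ± 0.19, SE; adjusted p = 0.0058) and FNV cells (1.14 ± 0.19, SE; adjusted p = 0.00489), and both calls were lost without the wave term (0.60 and 0.83), in the second wave alone (1.09 and 0.98) or without miniSOX replicate 1 (0.86 and 1.09). In order of group means, Ccnd1 ran from NTC in 2i (1686) and miniSOX in 2i (1574) over FNV in SL (1320), SOX2 in 2i (1095), miniSOX in SL (981) and FNV in 2i (906) to SOX2 in SL (564) and NTC in SL (57). Neighbours in this order overlapped in their libraries except miniSOX in 2i with FNV in SL, FNV in 2i with SOX2 in SL, and SOX2 in SL with NTC in SL.

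Ccnd1 overlaps LTO1 on the opposite strand over 1100 exonic bases, and the use of strand in the counting is not given, so reads of these genes cannot be told apart. LTO1 lay between 50 and 113 in all libraries, and at 57 and 58 in NTC cells in SL, where Ccnd1 was 58 and 56. LTO1 was itself higher in 2i in NTC cells (0.71 ± 0.22, SE; adjusted p = 0.029), and its medium effect was smaller in miniSOX than in NTC cells (-1.03 ± 0.32, SE; adjusted p = 0.0481), the directions seen for Ccnd1. Its part in the Ccnd1 result was not tested. Fibroblast marker sums in SL were 799 and 812 in NTC cells, 519 to 605 in SOX2, 1091 to 1145 in FNV and 2035 to 2246 in miniSOX cells. In 2i they were 170 to 189 in NTC, 289 to 425 in SOX2, 323 to 485 in FNV and 500 to 513 in miniSOX cells. Trophectoderm marker sums in SL were 9787 and 9897 in NTC, 1651 to 3194 in SOX2 and FNV, and 17333 and 17385 in miniSOX cells. The part of these cell types in the Ccnd1 result was not tested.

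**Figure D2:**
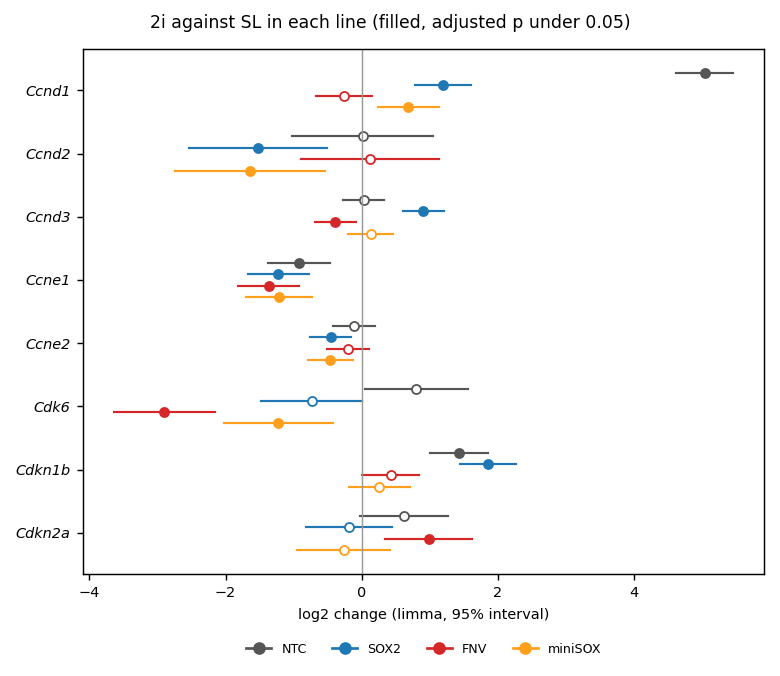
Log2 change of each gene between 2i and SL (x axis; above 0 is higher in 2i) in NTC, SOX2, FNV and miniSOX cells, with 95% intervals of the limma fit; filled circles passed at an adjusted p under 0.05. Ccne1 is below 0 in all 4 lines, whereas Ccnd1 runs from 5.04 in NTC to -0.26 in FNV cells and Cdk6 reaches -2.90 in FNV cells.

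Ccnd3 (ENSMUSG00000034165, chromosome 17, 47505051 to 47599691, plus strand), which encodes cyclin D3, was lower in FNV and miniSOX cells than in the other lines in 2i. It stood at 5155, 5574 and 4138 in NTC and at 5331, 5331, 4973 and 4582 in SOX2 cells in 2i. FNV cells had 2190, 2254, 2074 and 2219 and miniSOX cells 2492 and 2800, with no overlap with NTC or SOX2. In 2i, FNV cells differed from NTC by -1.14 ± 0.12 on the log2 scale (SE; adjusted p = 2.94e-06) and differed from SOX2 cells by -1.21 ± 0.11 (SE; adjusted p = 2.41e-06). MiniSOX cells differed from NTC by -0.78 ± 0.15 (SE; adjusted p = 0.0016) and from SOX2 cells by -0.85 ± 0.14 (SE; adjusted p = 0.00113). Within the second wave alone, which holds miniSOX libraries, the same comparisons with SOX2 gave -1.15 ± 0.09 for FNV and -0.85 ± 0.09 for miniSOX cells (adjusted p = 0.0038 and 0.0089).

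In SL, all 3 rescued lines had less Ccnd3 than NTC. The values were 5396 and 4669 for NTC, 3514 and 2325 for SOX2, 3266 and 2818 for FNV, and 2325 and 2503 in miniSOX cells. No rescued library reached the lower NTC library. The log2 changes against NTC were -0.81 ± 0.15 for SOX2, -0.73 ± 0.15 for FNV and -0.88 ± 0.18 for miniSOX cells (SE; adjusted p = 0.00283, 0.00252 and 0.00344), with the 2 NTC libraries in common. The SOX2 call was lost with only the groups compared in the fit (adjusted p = 0.124), and without SOX2 replicate 2 the change was -0.51. Among the lines, Ccnd3 was higher in 2i than in SL in SOX2 cells (0.91 ± 0.14, SE; adjusted p = 0.000122), and that medium effect differed from NTC by 0.88 ± 0.19 (SE; adjusted p = 0.00591), or 0.58 without SOX2 replicate 2 in SL, and from FNV, where the FNV minus SOX2 difference was -1.29 ± 0.19 (SE; adjusted p = 0.000352). In FNV cells Ccnd3 was lower in 2i (-0.39 ± 0.14, SE; adjusted p = 0.0379), a call that was lost without SOX2 p21 (-0.38), FNV replicate 1 (-0.35) or 2 (-0.37) in 2i, or FNV replicate 1 in SL (-0.28). Bysl shares 361 exonic bases with Ccnd3 on the opposite strand. Its values, 380 to 1201, were below those of Ccnd3 in every library, and none of its changes passed. The part of Bysl reads in the Ccnd3 result was not tested.

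Ccnd2 (ENSMUSG00000000184, chromosome 6, 127125162 to 127152193, minus strand), which encodes cyclin D2, was low in every library, between 4 and 52. In SL it was 24 and 33 for NTC, 41 and 52 for SOX2, 15 and 8 for FNV, and 39 and 42 in miniSOX cells. In 2i, Ccnd2 was at 25, 23 and 26 for NTC, 24, 20, 11 and 4 for SOX2, 10, 10, 12 and 7 for FNV, and 15 and 10 in miniSOX cells. FNV cells thus had the lowest group mean in each medium. In SL, Ccnd2 was lower in FNV than in SOX2 cells (-1.98 ± 0.52 on the log2 scale, SE; adjusted p = 0.0142) and higher in miniSOX than in FNV cells (2.39 ± 0.61, SE; adjusted p = 0.0167). It was lower in 2i than in SL in SOX2 cells (-1.52 ± 0.47, SE; adjusted p = 0.0172) and in miniSOX cells (-1.64 ± 0.52, SE; adjusted p = 0.0236). In 2i it was lower in FNV cells than in NTC (-1.18 ± 0.40, SE; adjusted p = 0.0292), a call lost without NTC p31 (-0.82), FNV replicate 1 or 2 (-1.07 each) or FNV p31 (-1.14). The other calls were also lost without single libraries. Without SOX2 replicate 2 in SL the FNV against SOX2 change was -1.81 and the SOX2 medium change -1.36, and without FNV replicate 2 in SL the FNV against SOX2 change was -1.56 and the miniSOX against FNV change 1.97. Without single miniSOX libraries the miniSOX medium change was -1.37 to -1.70 where lost, and the miniSOX against FNV change 2.34 and 2.44. Ccnd2 overlaps antisense genes that have no row in the deposited values.

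Levels of different genes were compared per kilobase of each gene's longest coding transcript. On this scale Ccnd3 was the main D cyclin RNA in every group. It made up 83.9% ± 1.24 (SD, n = 3) of the D cyclin sum in NTC cells in 2i, against 16.0% ± 1.28 for Ccnd1 and 0.143% ± 0.0329 for Ccnd2. In NTC cells in SL the Ccnd3 share was 99.2% ± 0.11 and the Ccnd1 share 0.637% ± 0.0486 (SD, n = 2). The Ccnd1 share was highest in miniSOX cells in 2i, at 25.2% ± 2.44 (SD, n = 2), and was 18.9% ± 3.82 (SD, n = 4) in FNV and 10.7% ± 3.04 (SD, n = 4) in SOX2 cells there. The D cyclin sum per kilobase was 2800 ± 456 (SD, n = 3) in NTC and 2687 ± 273 (SD, n = 4) in SOX2 cells in 2i. FNV cells in 2i had 1278 ± 52 (SD, n = 4), the lowest group. These shares rest on the transcript length used, and Ccnd3 has 16 coding transcripts in the annotation. Values per kilobase, also those of the E cyclins below, take the deposited values as not yet scaled by length. The sources used here do not state this.

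**Figure D3:**
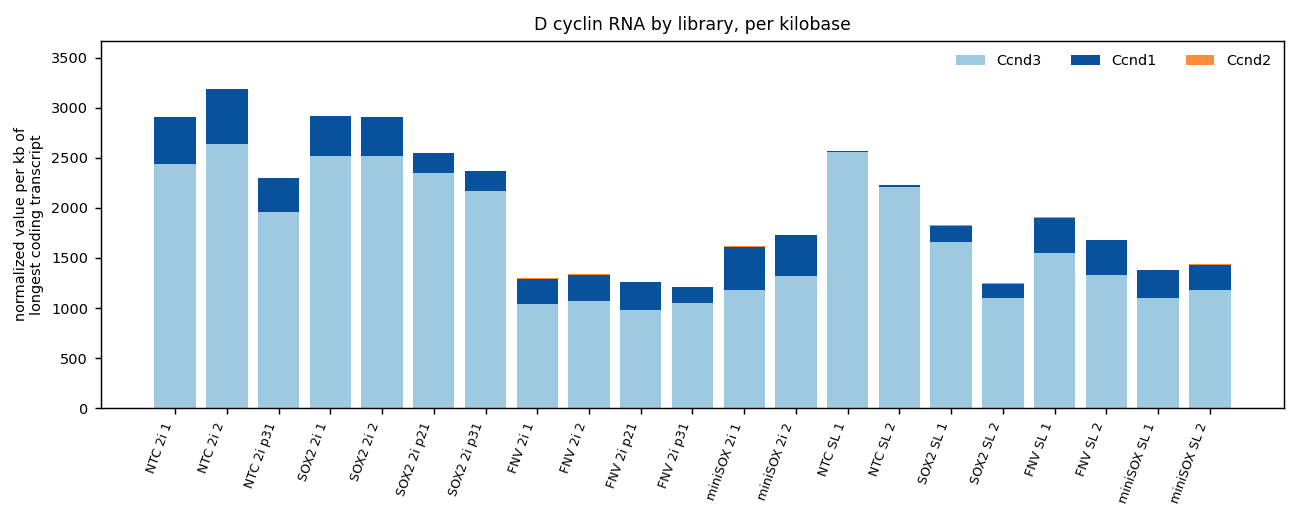
Normalized value per kilobase of the longest coding transcript (y axis, from 0), stacked for Ccnd3, Ccnd1 and Ccnd2, in each library (x axis). Ccnd3 is the largest piece in every library, the Ccnd1 piece is nearly absent in the 2 NTC libraries in SL, and Ccnd2 is barely visible.

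Cdk6 (ENSMUSG00000040274, chromosome 5, 3341485 to 3531008, plus strand), the kinase partner of the D cyclins, differed between lines in its response to 2i. FNV cells had 83, 82, 278 and 118 in 2i against 796 and 569 in SL, a 4.87-fold higher mean in SL (log2 change -2.90 ± 0.35 (SE), adjusted p = 1.14e-05). MiniSOX cells had 212 and 317 in 2i and 600 and 613 in SL. That change was -1.22 ± 0.38 (SE; adjusted p = 0.0211) and was lost without miniSOX replicate 1 in 2i (-0.93) or either miniSOX library in SL (-1.24 and -1.21). NTC cells had 426, 477 and 1298 in 2i against 319 and 279 in SL, so the higher values were in 2i, but the change did not pass (0.80 ± 0.35, SE; adjusted p = 0.112). The first wave alone gave 0.59 ± 0.17 (SE; adjusted p = 0.028). SOX2 cells, at 207, 259, 325 and 233 in 2i and 287 and 331 in SL, overlapped between media (-0.74 ± 0.35, SE; adjusted p = 0.0978).

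By the test of the difference, the medium effect on Cdk6 was lower in FNV cells than in NTC (-3.70 ± 0.47, SE; adjusted p = 6.37e-05) and than in SOX2 cells (-2.16 ± 0.46, SE; adjusted p = 0.00459). Those of SOX2 and miniSOX cells differed from NTC by -1.54 ± 0.47 and -2.03 ± 0.52 (SE; adjusted p = 0.0354 and 0.018). Of these, SOX2 against NTC lost its call without NTC p31 (-1.22) or any of 5 other libraries (-1.44 to -1.64). MiniSOX against NTC lost it without any of 4 libraries, which are miniSOX replicate 1 in 2i (-1.74), NTC replicate 2 in SL (-1.93) and both miniSOX libraries in SL (-2.04 and -2.01). In 2i, all 3 rescued lines had less Cdk6 than NTC: SOX2 by -1.49 ± 0.29, FNV by -2.53 ± 0.29 and miniSOX by -1.90 ± 0.38 (SE; adjusted p = 0.00161, 8.27e-06 and 0.00178). Every rescued library in 2i was below every NTC library. The NTC p31 value of 1298 was 2.88-fold the mean of the other 2 NTC libraries. Without it the changes were -1.18, -2.22 and -1.48, and all passed. In SL the order was different. FNV cells, at 796 and 569, were above NTC (1.17 ± 0.38, SE; adjusted p = 0.0293), a call lost without either NTC library (1.27 and 1.07) or FNV replicate 1 (0.93). Against SOX2 cells, FNV cells had less Cdk6 in 2i (-1.04 ± 0.27, SE; adjusted p = 0.0102) and more in SL (1.12 ± 0.38, SE; adjusted p = 0.0457). The first call was lost without the wave term (adjusted p = 0.0719) and in the second wave alone (-0.60), and the second without any of 13 libraries (0.88 to 1.37).

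Ccne1 (ENSMUSG00000002068, chromosome 7, 38097984 to 38107534, minus strand), which encodes cyclin E1, was lower in 2i in all 4 lines. In 2i it was 516, 511 and 1138 for NTC, 625, 589, 886 and 815 for SOX2, 706, 670, 571 and 731 for FNV, and 715 and 782 in miniSOX cells. In SL it was 1153 and 1142 for NTC, 1399 and 1496 for SOX2, 1423 and 1538 for FNV, and 1701 and 1769 in miniSOX cells. Every library in 2i was below every library in SL, although NTC p31, at 1138, came close to the value of the lowest SL library. The log2 changes in 2i against SL were -0.92 ± 0.21 for NTC, -1.23 ± 0.21 for SOX2, -1.37 ± 0.21 for FNV and -1.21 ± 0.23 for miniSOX cells (SE; adjusted p = 0.00569, 0.000265, 0.000109 and 0.00085). The NTC call was lost with no wave term (-0.78, adjusted p = 0.058), and the first wave alone gave -1.16 ± 0.06 (SE; adjusted p = 6.1e-06). In none of the 4 tests of a difference between lines did the medium effect on Ccne1 pass (-0.45 to -0.14, adjusted p 0.294 to 0.762). No comparison of lines within a medium passed for Ccne1 over all libraries. In SL, every library of the rescued lines was still above both NTC libraries. The log2 changes against NTC there were 0.33 ± 0.23 for SOX2, 0.37 ± 0.23 for FNV and 0.16 ± 0.27 for miniSOX (SE). Their adjusted p were 0.354, 0.258 and 0.741.

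Trophectoderm marker sums were lower in 2i than in SL in NTC (1323 to 2788 against 9787 to 9897), SOX2 and miniSOX cells. In FNV cells they were higher in 2i (5555 to 8027 against 3071 to 3194). The fibroblast marker sums were lower in 2i in every line. The part of either kind of cell in the Ccne1 result was not tested.

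Ccne2 (ENSMUSG00000028212, chromosome 4, 11191351 to 11204779, plus strand), which encodes cyclin E2, varied little by comparison. It was 337, 344 and 702 for NTC, 298, 309, 439 and 448 for SOX2, 341, 325, 373 and 426 for FNV, and 401 and 443 in miniSOX cells in 2i. In SL it was 413 and 413 for NTC, 441 and 390 for SOX2, 353 and 336 for FNV, and 589 and 573 in miniSOX cells. The miniSOX cells in SL were above every library but NTC p31, and in SL the FNV libraries were below those of every other line. In 2i the libraries of each pair of lines compared overlapped. In 2i against SL, Ccne2 was lower in SOX2 cells (-0.46 ± 0.14, SE; adjusted p = 0.0174) and in miniSOX cells (-0.46 ± 0.16, SE; adjusted p = 0.033). The SOX2 call was lost without the wave term (-0.18, adjusted p = 0.62) or SOX2 replicate 1 in SL (-0.37), and the miniSOX call was lost without any 1 of the miniSOX libraries (-0.39 to -0.53). In 2i, SOX2 and FNV cells were lower than NTC (-0.33 ± 0.12 and -0.34 ± 0.12, SE; adjusted p = 0.0497 and 0.0335). Without NTC p31, which had 702, these changes were -0.09 and -0.10 and did not pass. The SOX2 call was also lost without any of 16 other libraries, and the FNV call without FNV p21 (-0.26) or p31 (-0.33). Ccne2 shares 609 exonic bases with Ints8 on the opposite strand, and Ints8 stood between 2209 and 2932, above Ccne2 in all libraries. Ints8 was higher in FNV cells than in NTC in 2i (0.26 ± 0.07, SE; adjusted p = 0.00677), where Ccne2 was lower. The part of Ints8 reads in the Ccne2 result was not tested. Per kilobase, Ccne1 made up 69.9% ± 0.93 (SD, n = 3) of the E cyclin sum in NTC cells in 2i and 80.7% ± 0.11 (SD, n = 2) in SL.

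Cdkn1b (ENSMUSG00000003031, chromosome 6, 134920401 to 134925513, plus strand), which encodes p27, was highest in the first-wave 2i libraries of NTC and SOX2 cells. NTC cells in 2i had 1870 and 1945 in the first wave and 563 in the p31 library. SOX2 cells in 2i had 1569 and 1574 in the first wave and 645 and 613 in the second. FNV cells in 2i had 774 and 735, then 530 and 382. Between waves the means thus differed by 3.39-fold in NTC, 2.50-fold in SOX2 and 1.66-fold in FNV cells. MiniSOX cells, all of the second wave, had 437 and 460. In SL the values were 589 and 660 for NTC, 450 and 388 for SOX2, 622 and 703 for FNV, and 369 and 380 in miniSOX cells. All second-wave 2i libraries, at 382 to 645, therefore lay within the range of the SL libraries, 369 to 703.

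With the wave term, Cdkn1b was higher in 2i in NTC (log2 change 1.43 ± 0.20 (SE), adjusted p = 0.000125) and SOX2 cells (1.86 ± 0.19, SE; adjusted p = 3.6e-06). Within the first wave these were 1.61 ± 0.09 and 1.91 ± 0.09 (SE; adjusted p = 7.6e-06 and 1.4e-06). Without the wave term neither passed (1.03 and 1.25, adjusted p = 0.19 and 0.057). FNV cells (0.42 ± 0.19, SE; adjusted p = 0.096) and miniSOX cells (0.26 ± 0.21, SE; adjusted p = 0.386) did not pass. The medium effect was smaller in FNV than in NTC (-1.01 ± 0.27, SE; adjusted p = 0.0121) and than in SOX2 cells (-1.43 ± 0.26, SE; adjusted p = 0.00159), and smaller in miniSOX than in NTC cells (-1.17 ± 0.29, SE; adjusted p = 0.0152). FNV against NTC lost its call without NTC replicate 1 or FNV replicate 2 in SL (-0.92 in both), and miniSOX against NTC without miniSOX replicate 1 in 2i (-1.13), NTC replicate 1 in SL (-1.09) or miniSOX replicate 2 in SL (-1.15). No SL library of NTC, SOX2 or FNV cells is of the second wave, so the medium effect could not be measured there in these lines.

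Among lines in 2i, Cdkn1b was lower in FNV than in NTC (-0.92 ± 0.16, SE; adjusted p = 0.000397) and than in SOX2 cells (-0.77 ± 0.15, SE; adjusted p = 0.00162). In the first wave alone these were -1.34 ± 0.09 and -1.06 ± 0.09 (SE; adjusted p = 1.1e-05 and 7.6e-05), and in the second wave alone -0.32 ± 0.19 and -0.48 ± 0.16 (SE; adjusted p = 0.307 and 0.161). MiniSOX cells in 2i were lower than NTC (-0.69 ± 0.21, SE; adjusted p = 0.0244), a call lost in the second wave alone (-0.33) and without NTC replicate 1 (-0.63) or 2 (-0.61) or either miniSOX library (-0.65 and -0.73). Without NTC p31 the change was -1.05 and passed. In SL, FNV cells exceeded SOX2 cells by 0.66 ± 0.21 (SE; adjusted p = 0.0372), a call lost without any 1 of these 4 libraries (0.55 to 0.77). MiniSOX cells in SL were called higher than SOX2 cells (1.06 ± 0.25, SE; adjusted p = 0.00759) although their own values, 369 and 380, were below the SOX2 values of 450 and 388. That change is set by the wave term: dropping that term, or keeping only the groups compared, gave -0.16, and it is not read as a difference between these lines.

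Cdkn2a (ENSMUSG00000044303, chromosome 4, 89274471 to 89294653, minus strand), the shared gene of p16Ink4a and p19Arf, differed most between the FNV and miniSOX lines in SL. There it was 193 and 367 in FNV and 809 and 814 in miniSOX cells, a difference of 2.26 ± 0.38 on the log2 scale (SE; adjusted p = 0.00131). The libraries did not overlap, and the fit without the wave term gave 1.60 ± 0.42 (SE; adjusted p = 0.019). NTC cells had 636 and 517 in SL and SOX2 cells 397 and 573. Against NTC, FNV cells were lower (-1.10 ± 0.32, SE; adjusted p = 0.0183) and miniSOX cells higher, with an adjusted p of 0.0451. The FNV call was lost without NTC replicate 1 (-0.96) or FNV replicate 1 (-0.64), and the miniSOX call without any of 14 libraries or without the wave term (0.50, adjusted p = 0.44). Against SOX2 cells in SL, miniSOX cells were higher by 1.42 ± 0.38 (SE; adjusted p = 0.0156), a call lost without SOX2 replicate 1 or either miniSOX library, and with no wave term or only the groups compared, where the change was 0.77.

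In 2i, Cdkn2a was highest in NTC cells by the group means, at 857, 946 and 542. SOX2 cells had 493, 516, 237 and 209, FNV cells 413, 449, 510 and 329, and miniSOX cells 667 and 682. SOX2 and FNV libraries were all below the NTC libraries. SOX2 cells were lower than NTC by -1.07 ± 0.25 on the log2 scale (SE; adjusted p = 0.00519), in the first wave alone by -0.83 ± 0.28 (adjusted p = 0.047) and in the second by -1.28 ± 0.25 (adjusted p = 0.034). FNV cells were lower than NTC by -0.75 ± 0.25 (SE; adjusted p = 0.0268), a call lost without any of the 3 NTC libraries (-0.70 to -0.79) or FNV replicate 1 (-0.60) or 2 (-0.65). MiniSOX cells were above SOX2 cells by 1.33 ± 0.30 (SE; adjusted p = 0.00806), a call lost without either miniSOX library (1.35 and 1.32), and by 1.60 ± 0.20 in the second wave alone (SE; adjusted p = 0.014). Between media, Cdkn2a passed only in FNV cells (0.98 ± 0.30, SE; adjusted p = 0.0153), where libraries overlapped and the call was lost without FNV replicate 1 in SL (0.52). The difference of that effect from the one in SOX2 cells was 1.16 ± 0.39 (SE; adjusted p = 0.0496) and passed in 9 of 31 alternatives.

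Counted over the members, changes between media went both ways in each line. In NTC cells 3 of 8 genes passed beside 24.6% of all genes: 2 higher (all genes 11.9%) and 1 lower (12.8%). In SOX2 cells 6 of 8 genes passed beside 44.9% of all genes: 3 higher (all genes 22.3%) and 3 lower (22.5%). For FNV cells 4 of 8 genes passed beside 40.6% of all genes: 1 higher (all genes 20.3%) and 3 lower (20.4%). For miniSOX cells 5 of 8 genes passed beside 33.4% of all genes: 1 higher (all genes 17%) and 4 lower (16.4%). The members' share was above that of all genes in each line, and with 8 genes a single call moves it widely.

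Against NTC in 2i, the members that passed were lower in every rescued line. With SOX2, 4 of 8 genes passed beside 28.7% of all genes: 0 higher (all genes 14.4%) and 4 lower (14.3%). With FNV, 7 of 8 genes passed beside 39.7% of all genes: 0 higher (all genes 19.7%) and 7 lower (20%). With miniSOX, 3 of 8 genes passed beside 27.7% of all genes: 0 higher (all genes 14.3%) and 3 lower (13.5%). Ccne1 was the gene that did not pass with FNV, and the median log2 change of the 8 genes there was -0.86, beside -0.01 over all genes. Without NTC p31 the SOX2 and FNV counts fell to 2 and 4, and without FNV p21 the miniSOX count rose to 5. The shares of all genes in those fits are not given here, so these moves are not read as particular to the members. Between FNV and SOX2 cells, 3 of 8 genes passed beside 25.2% of all genes: 0 higher (all genes 12.4%) and 3 lower (12.9%). Between miniSOX and SOX2 cells, 3 of 8 genes passed beside 14.9% of all genes: 2 higher (all genes 7.32%) and 1 lower (7.57%). Between miniSOX and FNV cells, 1 of 8 genes passed beside 7.66% of all genes: 1 higher (all genes 3.81%) and 0 lower (3.85%).

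In SL the members that passed against NTC went both ways, with Ccnd1 higher and Ccnd3 lower in all 3 lines. For SOX2 cells 2 of 8 genes passed beside 15% of all genes: 1 higher (all genes 7.35%) and 1 lower (7.63%). In FNV cells 4 of 8 genes passed beside 30% of all genes: 2 higher (all genes 14.2%) and 2 lower (15.8%). In miniSOX cells 3 of 8 genes passed beside 19.6% of all genes: 2 higher (all genes 9.44%) and 1 lower (10.2%). The rescued lines also differed from each other. For FNV against SOX2 cells in SL, 4 of 8 genes passed beside 21.4% of all genes: 3 higher (all genes 10.2%) and 1 lower (11.2%). For miniSOX against SOX2 cells in SL, 3 of 8 genes passed beside 21.6% of all genes: 3 higher (all genes 10.4%) and 0 lower (11.2%). For miniSOX against FNV cells in SL, 2 of 8 genes passed beside 15.2% of all genes: 2 higher (all genes 7.4%) and 0 lower (7.8%).

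Tests of the difference between medium effects passed for Ccnd1 and Cdk6 in all 4 pairs of lines tested. For SOX2 against NTC, 3 of 8 genes passed beside 18.8% of all genes: 1 higher (all genes 9.82%) and 2 lower (9.01%). For FNV against NTC, 3 of 8 genes passed beside 25.8% of all genes: 0 higher (all genes 13.4%) and 3 lower (12.4%). For miniSOX against NTC, 3 of 8 genes passed beside 13.7% of all genes: 0 higher (all genes 7.71%) and 3 lower (5.96%). For FNV against SOX2, 5 of 8 genes passed beside 20.8% of all genes: 1 higher (all genes 10.7%) and 4 lower (10.1%).

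Among the other CDK inhibitors, Cdkn1c and Cdkn1a changed with the medium in all 4 lines, in opposite directions. Cdkn1c, the KIP family inhibitor p57, was 16.7 ± 12.4 (SD, n = 3) in NTC cells in 2i against 1235 ± 164 (SD, n = 2) in SL, and miniSOX cells had 13.5 ± 6.36 against 1712 ± 35.4 (SD, n = 2 each). In SOX2 cells it was 7.25 ± 2.87 (SD, n = 4) against 264 ± 53.7 (SD, n = 2), and in FNV cells 36.3 ± 21.7 (SD, n = 4) against 143 ± 2.12 (SD, n = 2). All 4 changes passed, from -6.96 ± 0.53 in miniSOX to -2.42 ± 0.49 in FNV cells (SE; adjusted p = 2.39e-07 and 0.00105). Cdkn1a, the KIP family inhibitor CIP1, went the other way in all 4 lines. It was 2333 ± 200 (SD, n = 3) in 2i and 733 ± 9.9 (SD, n = 2) in SL in NTC cells (1.77 ± 0.20, SE; adjusted p = 2.55e-05). In FNV cells it was 3109 ± 861 (SD, n = 4) against 1375 ± 75.7 (SD, n = 2; change 1.29 ± 0.20, SE; adjusted p = 0.000124). The INK4 genes Cdkn2b and Cdkn2c were low, at 12 to 27 and 7 to 38 over all libraries. Cdkn2b was lower in 2i in SOX2 cells (-0.81 ± 0.27, SE; adjusted p = 0.0248). Cdkn2c was lower than in NTC in miniSOX cells in 2i (-1.14 ± 0.39, SE; adjusted p = 0.0432) and in FNV cells in SL (-1.10 ± 0.39, SE; adjusted p = 0.0478). Cdkn2d, the INK4 gene of p19Ink4d, was 112 ± 20.9 (SD, n = 4) in 2i and 50 ± 18.4 (SD, n = 2) in SL in SOX2 cells (1.37 ± 0.26, SE; adjusted p = 0.000715). In miniSOX cells it was 105.5 ± 3.54 against 44.5 ± 6.36 (SD, n = 2 each; change 1.23 ± 0.29, SE; adjusted p = 0.0041). The change did not pass in NTC (0.06, adjusted p = 0.927) or FNV cells (-0.10, adjusted p = 0.792). In SL, Cdkn2d was lower than in NTC in SOX2 and miniSOX cells (-1.56 and -1.29, adjusted p = 0.00253 and 0.0152).

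**Figure D4:**
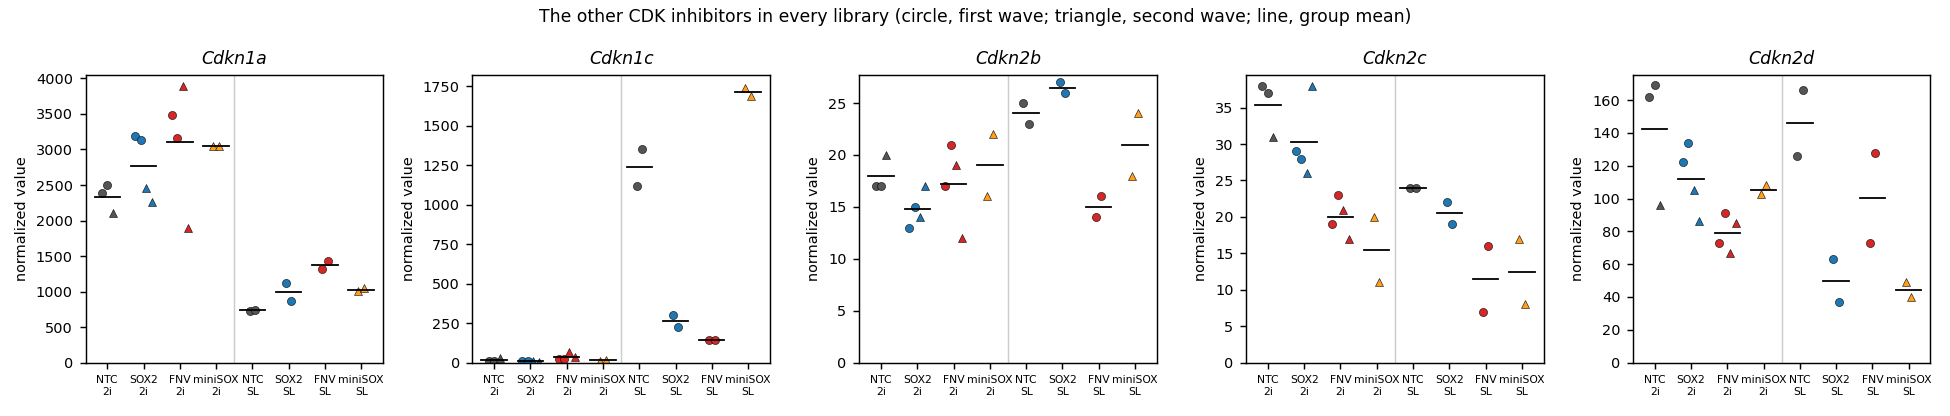
Normalized value (y axis, linear, from 0) of Cdkn1a, Cdkn1c, Cdkn2b, Cdkn2c and Cdkn2d in every library, by line and medium (x axis); circles are first-wave libraries, triangles second-wave libraries, lines group means. Cdkn1a is higher in 2i than in SL in each line, and Cdkn1c is at 67 or less in 2i and highest in NTC and miniSOX cells in SL.

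Of 7 G1 kinases and their activators, 2 were higher in 2i in NTC, 3 higher and 2 lower in SOX2, 2 lower in FNV, and 2 higher in miniSOX cells. These are 28.6%, 71.4%, 28.6% and 28.6% of the list, beside 24.6%, 44.9%, 40.6% and 33.4% of all genes in the same comparisons. Cdk2, the partner of cyclin E, was 2094 ± 109 (SD, n = 4) in 2i against 1128 ± 30.4 (SD, n = 2) in SL in SOX2 cells (0.97 ± 0.11, SE; adjusted p = 6.01e-06) and 1924 ± 103 against 1024 ± 105 (SD, n = 2 each) in miniSOX cells (0.91 ± 0.12, SE; adjusted p = 3.1e-05). Cdk4, the other partner of the D cyclins, was lower than NTC in 2i in all 3 rescued lines, at 5422 ± 46.2 (SD, n = 3) in NTC and 3442 ± 401 (SD, n = 4) in FNV cells (-0.69 ± 0.08, SE; adjusted p = 9.37e-06).

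Of 13 retinoblastoma family and E2F genes, 1 was higher and 4 lower in 2i for NTC, 1 and 9 for SOX2, 1 and 6 for FNV, and 1 and 6 in miniSOX cells, with medians from -0.45 to -0.15 beside medians of all genes from -0.02 to 0.03. In that order of lines 38.5%, 76.9%, 53.8% and 53.8% of the list passed, beside 24.6%, 44.9%, 40.6% and 33.4% of all genes. E2f7, a repressor of the E2F family, was 105 ± 30.3 (SD, n = 3) in 2i against 306 ± 1.41 (SD, n = 2) in SL in NTC cells (-1.69 ± 0.23, SE; adjusted p = 9.42e-05) and 101 ± 31.1 against 566 ± 67.9 (SD, n = 2 each) in miniSOX cells (-2.50 ± 0.24, SE; adjusted p = 2.25e-06). E2f4, the factor that works with the retinoblastoma relatives in resting cells, was lower in 2i in all 4 lines, for example 1145 ± 511 (SD, n = 4) against 2664 ± 411 (SD, n = 2) in SOX2 cells (-1.73 ± 0.20, SE; adjusted p = 8.41e-06). Those 2i values were 738 and 679 in the first wave and 1686 and 1475 in the second. Both SL libraries are of the first wave, so the size of that change rests partly on the wave term. E2f1, an activator, was the gene that rose in miniSOX cells, at 1394 ± 74.2 in 2i against 478 ± 14.8 in SL (SD, n = 2 each; change 1.54 ± 0.19, SE; adjusted p = 2.72e-05).

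Of 20 replication genes driven by E2F, 1 was higher and 3 lower in 2i for NTC, 2 and 8 for SOX2, 3 and 7 for FNV, and 2 and 4 in miniSOX cells. These shares of 20%, 50%, 50% and 30% stand beside 24.6%, 44.9%, 40.6% and 33.4% of all genes, so those in NTC and miniSOX cells were below the background. Against NTC in 2i, 9 were lower with SOX2, 10 with FNV and 6 with miniSOX, and 2, 1 and 2 higher, in all 55%, 55% and 40% of the list beside 28.7%, 39.7% and 27.7% of all genes. Pcna, the sliding clamp of DNA polymerase, was 5539 ± 111 (SD, n = 3) in NTC and 3483 ± 521 (SD, n = 4) in FNV cells in 2i (-0.69 ± 0.09, SE; adjusted p = 3.59e-05). Pola1, the catalytic subunit of the polymerase that starts new strands, was 2203 ± 59 (SD, n = 3) and 1331 ± 62.9 (SD, n = 4) in the same groups (-0.71 ± 0.05, SE; adjusted p = 1.03e-07).

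Of 17 mitotic genes, 10 were lower and 1 higher in 2i for NTC, 6 and 1 for SOX2, 13 and 0 for FNV, and 3 and 3 in miniSOX cells. By line that is 64.7%, 41.2%, 76.5% and 35.3% of the list, beside 24.6%, 44.9%, 40.6% and 33.4% of all genes, so SOX2 and miniSOX cells were near the background. Mki67, which encodes the Ki-67 antigen of cycling cells, was 3469 ± 377 (SD, n = 3) in 2i against 6120 ± 177 (SD, n = 2) in SL in NTC cells (-0.90 ± 0.08, SE; adjusted p = 3.01e-06). Foxm1, a factor that drives mitotic genes, was 698 ± 61.2 (SD, n = 4) in 2i against 1209 ± 89.1 (SD, n = 2) in SL in FNV cells (-0.65 ± 0.08, SE; adjusted p = 1.86e-05) and 857 ± 33.9 against 667 ± 10.6 (SD, n = 2 each) in miniSOX cells (0.36 ± 0.09, SE; adjusted p = 0.00568).

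Of 12 measured genes for the turnover of G1 cyclins and p27, 4 were lower in 2i for NTC, 6 for SOX2, 5 for FNV and 4 in miniSOX cells, and 1, 0, 1 and 1 higher. The list's shares were 41.7%, 50%, 50% and 41.7%, beside 24.6%, 44.9%, 40.6% and 33.4% of all genes. Skp2, the ubiquitin ligase subunit that recognises p27, was 704 ± 233 (SD, n = 4) in 2i against 1163 ± 90.5 (SD, n = 2) in SL in SOX2 cells (-1.06 ± 0.17, SE; adjusted p = 0.000184). The Skp2 values there in 2i were 477 and 530 in the first wave and 876 and 932 in the second, so this change too rests partly on the wave term. Its cofactor Cks1b was 867 ± 129 (SD, n = 3) against 1227 ± 133 (SD, n = 2) in NTC (-0.49 ± 0.14, SE; adjusted p = 0.0165) and 609 ± 56.7 (SD, n = 4) against 1333 ± 148 (SD, n = 2) in FNV cells (-1.10 ± 0.13, SE; adjusted p = 1.29e-05).

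Of 13 regulators of Cdkn2a, 3 were higher and 3 lower in 2i for NTC, 5 and 5 for SOX2, 6 and 3 for FNV, and 4 and 3 in miniSOX cells. Of the list, 46.2%, 76.9%, 69.2% and 53.8% passed, beside 24.6%, 44.9%, 40.6% and 33.4% of all genes. Cbx7, a Polycomb subunit known to repress Cdkn2a, was 1921 ± 290 in FNV and 3168 ± 188 in miniSOX cells in SL (SD, n = 2 each; miniSOX minus FNV 0.77 ± 0.21, SE; adjusted p = 0.0262). In 2i it was lower than in NTC in SOX2 and FNV cells (-0.68 ± 0.14 and -1.05 ± 0.14, SE; adjusted p = 0.00253 and 3.72e-05). Bmi1, another Polycomb subunit, was 326 ± 3.54 with SOX2, 174 ± 7.78 with FNV and 250 ± 0.707 with miniSOX in SL (SD, n = 2 each). It was lower in FNV than in SOX2 cells (-0.90 ± 0.24, SE; adjusted p = 0.0143). Ets2, an activator of p16Ink4a, was 194 ± 20.8 (SD, n = 3) in NTC and 435 ± 61.2 (SD, n = 4) in SOX2 cells in 2i (1.19 ± 0.13, SE; adjusted p = 2.24e-05).

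The 8 genes did not share a single pattern. Pearson's r between them over the 8 group means of log2(value + 1) ran from -0.61 for Ccne1 with Cdkn1b to 0.84 for Ccne2 with Cdkn2a, and was 0.21 for Ccnd1 with Cdk6, as a description over groups that share lines and media. These means were not adjusted for wave. In 2i, the second-wave mean over the first for Ccne1 and Cdkn1b was 2.22 and 0.295 in NTC cells. It was 1.40 and 0.4 in SOX2, and 0.946 and 0.604 in FNV cells. The part of the wave in these r values was not tested. Compared over the same 8 means with 6886 genes, the profiles most like Ccnd1 were Zfp600 (r = 0.962), Rita1 (0.954) and Vmn2r73 (0.952). The profiles most like Ccne1 were Grhl2 (0.989), Abhd6 (0.986) and Car2 (0.985). Those most like Cdkn1b were Nkx6-2 (0.982), Tigd2 (0.949) and Slc12a7 (0.947), and those most like Ccnd3 were Acss1 (0.933), Fam13a (0.929) and Slc17a9 (0.928). For Ccne2 they were Mrps34 (0.967), Brf1 (0.951) and Mtg2 (0.946), for Cdkn2a Glcci1 (0.953), Ctdsp1 (0.945) and Pih1d1 (0.936), and for Cdk6 Ptchd1 (0.949), Pcolce2 (0.947) and Hmga1b (0.909). Ccnd2 was below the minimum mean for this ranking.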

How the data were processed

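The authors deposited a single table for 16443 genes and 21 libraries. Per the submitters' processing notes, the mm10 genome, RSEM and Bowtie2 2.0 were used, and per the labels' protocols polyadenylated RNA was captured on oligo(dT) beads before random priming. The deposited values are whole numbers on a score scale with no unit, called normalized values in the text, since any 2 libraries, once sorted, are within 3 of each other at every rank. The software for it: not given in the sources used here. Totals run from 14044316 to 14047262 with a median of 214 in every library, so read depth is unknown and no counting interval was computed.

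Of the columns, 16 matched 1 sample each by name and 5, called p21 or p31, matched a group only and carry no replicate number. P-values come from limma 3.58.1 in R 4.3.3, fitted on log2(value + 1) over all genes and all 21 libraries with group and wave terms, an intensity trend and robust moderation, leaving 12 residual degrees of freedom. They are two-sided and adjusted by Benjamini-Hochberg over the 16443 genes. A result passed when the adjusted p was under 0.05. Requiring a value of 1 or more in 2 or more libraries removed 0 genes. The script was tested on simulated data. The genes described, the gene lists and the tests were chosen with earlier results of these data known.

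Gene positions, transcript lengths and sequences are those of GENCODE M21 on GRCm38 (mm10). Every gene described is named with all its libraries. From the other lists at most 4 genes per comparison could be named, those with the smallest adjusted p, a mean of 50 or more in the higher group and libraries that did not overlap, and the text names a part of them, picked after their values were seen. Cdkn2b and Cdkn2c are named outside this rule, since their values are under 50 in every library. Genes of like pattern were ranked by Pearson's r over the 8 group means of log2(value + 1), among genes with some group mean of 50 or more and group means that span at least 1 on the log2 scale. The alternatives tried were pseudocounts of 0.1 and 10, dropping genes under a mean of 50, median centring, a repeated quantile normalization, the wave term, each wave alone, only the groups compared, a replicate block, no robust moderation, and leaving out each library in turn. A planned search for promoter motifs was not run. Figures were drawn with matplotlib 3.10.9.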

Additional observations from a re-analysis of the deposited data

Results flagged for a closer look

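The effect of 2i against SL was tested between lines, and 14 such differences passed, each given as the log2 change in the first line minus that in the second. For Ccnd1 the difference was -5.30 for FNV against NTC, -4.36 for miniSOX against NTC, -3.85 for SOX2 against NTC and -1.45 for FNV against SOX2. For Cdk6 it was -3.70 for FNV against NTC, -2.16 for FNV against SOX2, -2.03 for miniSOX against NTC and -1.54 for SOX2 against NTC. For Cdkn1b it was -1.43 for FNV against SOX2, -1.17 for miniSOX against NTC and -1.01 for FNV against NTC. For Ccnd3 it was 0.88 for SOX2 against NTC and -1.29 for FNV against SOX2. For Cdkn2a it was 1.16 for FNV against SOX2. In the groups of 4 libraries, 16 sets of values were checked for a library far from the others by Dixon's test at 95%, and none was found. Chance alone would flag about 1 in 20 such sets. These groups hold 2 libraries of each wave, and where the waves differ, a check for 1 far library cannot flag it. NTC p31 is in a group of 3 libraries and was not checked.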

How the results depend on the processing

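Of the 71 member results that passed, the call was lost in 2 with a pseudocount of 0.1, in 0 with a pseudocount of 10, median centring or renewed quantile normalization, in 1 without robust moderation, and in 0 of the 66 that a minimum mean of 50 left to test. With no wave term 38 kept their call, 32 lost it and 1 reversed, and with only the groups compared 57, 13 and 1. The first wave alone kept 43 of 48, and the second wave alone 12 of 26. The reversed result was Cdkn1b in miniSOX against SOX2 cells in SL, at -0.16 under both settings. The cause of the other losses was not tested. Fewer libraries entered the fits of single waves and of only the groups compared.

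Counts of members changed moved as follows. The shares of all genes under the same settings are not given, here or for leaving out each library below. These moves are therefore not read as particular to the members. With no wave term they were 1 for 2i against SL in NTC and 2 in miniSOX cells, 2 for SOX2 and 4 for FNV against NTC in 2i, 1 each for FNV and miniSOX against SOX2 in 2i, and 0 for miniSOX against FNV in 2i. In SL they were 2 for FNV against NTC, 2 for FNV against SOX2 and 0 for miniSOX against SOX2, and for the difference between media effects 1 for miniSOX against NTC and 3 for FNV against SOX2. The first wave alone gave 5 for 2i against SL in NTC, 5 for FNV against SOX2 in 2i, and 4 for SOX2 and 7 for FNV against NTC in SL. The second wave alone gave 2 for 2i against SL in miniSOX, 2 for SOX2 and 4 for FNV against NTC in 2i, 1 for FNV against SOX2 and 0 for miniSOX against FNV in 2i. Only the groups compared gave 6 for 2i against SL in NTC, 6 for miniSOX against NTC and 0 for miniSOX against FNV in 2i. In SL that setting gave 1 for SOX2 and 7 for miniSOX against NTC, 2 for FNV against SOX2 and 5 for miniSOX against FNV, and it gave 5 for the media difference of miniSOX against NTC. MiniSOX against FNV gave 2 in 2i with a pseudocount of 10 and with a minimum mean of 50, and 1 in SL with that minimum.

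Leaving out each library in turn, 1355 of 1491 results kept their call and 136 lost it. In 2i against SL the counts ran from 3 to 4 in NTC, 5 to 7 in SOX2, 2 to 5 in FNV (2 without FNV replicate 1 in SL) and 1 to 5 in miniSOX cells (1 or 2 without any miniSOX library). In 2i they ran from 2 to 4 for SOX2, 4 to 7 for FNV (2 and 4 without NTC p31) and 2 to 5 for miniSOX against NTC (5 without FNV p21). They ran from 3 to 4 for FNV and 1 to 4 for miniSOX against SOX2 (1 without miniSOX replicate 1), and 0 to 4 for miniSOX against FNV in 2i (0 without miniSOX replicate 1, 4 without FNV p21). In SL they ran from 2 to 3 for SOX2, 2 to 5 for FNV (2 without replicate 1 of NTC or FNV) and 2 to 4 for miniSOX against NTC. They ran from 1 to 5 for FNV against SOX2 (1 without SOX2 replicate 2, 2 without any other of these 4 libraries), 2 to 3 for miniSOX against SOX2, and 1 to 2 for miniSOX against FNV (1 without FNV replicate 2 or either miniSOX library). For the media differences they ran from 2 to 3, 2 to 4 and 1 to 3 for SOX2, FNV and miniSOX against NTC (1 without miniSOX replicate 1 in 2i or 2 in SL), and 4 to 5 for FNV against SOX2.

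Replicate numbers did not pair the samples: over 28 same-numbered pairs the correlation of deviations from the group means was -0.092 to 0.086. With the replicate block, 69 of the 71 calls held, Ccne2 lost its call in SOX2 and in FNV against NTC in 2i (-0.29 and -0.30), and the count for miniSOX against FNV in 2i was 2. Read depth is unknown, so the precision of low values such as those of Ccnd2 is unknown too.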
